A study of Danio rerio with 8 samples.

Results

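Transcription start sites on unplaced scaffolds of the zebrafish (Danio rerio) genome were examined in cap analysis gene expression (CAGE) libraries, in which the capped 5′ ends of RNAs are captured and sequenced so that tags pile up where transcription starts. The deposited tables list start site clusters, short stretches of one strand, with a value in RPM (tags scaled to library size). Each cluster is given by sequence name, start, end and strand and carries no gene name, so that the regions below are named by their scaffold and position. Same-strand clusters that overlapped by at least 1 base were merged across the tables. A merged region was taken as a member when its sequence was neither one of chr1 to chr25 nor the mitochondrial sequence, of which the tables held 0 regions. Of 42130 merged regions, 664 lay on such sequences, all with KN names, and they were spread over 292 scaffolds. The sequence names and positions are those of the tables. The build is danRer10 per the submitters' processing notes, and the role of each listed tool is not given there.

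The libraries came from whole embryos of 4 groups: wild type (WT) at 12 hours post-fertilization (hpf), WT at 16 hpf, jam3b-sa37 at 12 hpf and jam3b-sa37 at 16 hpf, with 2 libraries in each. The jam3b gene encodes a junctional adhesion molecule, which in zebrafish is known for its part in the fusion of muscle precursor cells, and sa37 is an allele of it. The strain of the WT embryos, the zygosity of the sa37 embryos, whether the genotypes share parents, and how many embryos went into a library are not given in the labels. Nothing in the labels says that the 2 libraries of a group came from separate clutches, so p-values measure only the spread between these libraries. In whole embryos, fewer cells that use a start and less RNA per cell cannot be told apart. Because the clusters carry no gene name, the transcript of jam3b itself was not checked here.

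Unplaced scaffolds are assembled stretches that could not be assigned to a chromosome when the genome was built. They are known to be rich in repeats, in recently duplicated genes and in sequence variants that differ between individuals and strains, and zebrafish strains are known for large numbers of such variants. A CAGE tag from a sequence with near-identical copies can map to several places, and how such tags were handled is not given in the sources used here, so that a value on a scaffold may hold tags of a copy elsewhere. At 12 to 16 hpf the embryo is in the segmentation period, in which somites form and muscle begins to differentiate.

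The 4 libraries whose titles carry no replicate number, here called replicate 1, share one cluster list (list 1). The 4 whose titles end in 2, here called replicate 2, share another (list 2). The replicate number, the list and its normalization thus cannot be told apart. Each group holds 1 library of each list. In a fit that does not take the replicate number as a block, the spread within a group therefore includes the difference between the lists. The SEs and p-values of such a fit measure that difference as well. List 1 held 488 distinct clusters on scaffolds (1.61% of its 30353) and list 2 held 575 (1.37% of its 42082). Clusters on scaffolds had a median length of 42 bases in list 1, where those of chr1 to chr25 had 56, and of 20 bases in list 2, where the others had 15. List 1 holds no value between 0 and 0.51 to 0.55 RPM. List 2 reaches down to 1 tag, and its libraries held 16938035 to 23300922 tags in distinct clusters, so that a floor of 3 tags was 0.125 to 0.172 RPM. Of the 664 members, 336 had clusters in both lists, 149 in list 1 alone and 179 in list 2 alone. The share in one list alone was 49.4% on scaffolds and 43.9% on chr1 to chr25. Of the 336 shared members, 269 reached a mean of 1 RPM over the 8 libraries and were tested, on 180 scaffolds, and 67 did not. All tests were fitted over the 19000 regions that met this minimum, 18731 of them on chr1 to chr25.

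Scaffold starts had a lower median level than those of the chromosomes. The median level was 6.20 RPM over the 269 tested members, with quartiles of 2.53 and 16.6 RPM, against 8.22 RPM with quartiles of 2.97 and 23.6 RPM on chr1 to chr25. Levels of at least 100 RPM were reached by 8 members (2.97%) and by 6.19% of the chromosomal regions. Members were also more often listed at 0: 6.69 to 11.2% of them in the list 1 libraries, against 3.11 to 7.20% on the chromosomes, and 1.86 to 2.60% against 0.374 to 0.534% in list 2. No test was made of these differences between the sets of regions. The strands were used about alike, with 127 tested members on the plus strand and 142 on the minus strand. Most scaffolds held few starts: 125 had 1 tested member, 37 had 2, 9 had 3 and 9 had 4 or more.

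The scaffold clusters together took 0.486 to 0.544% of the listed RPM in the 4 libraries of list 1 and 0.733 to 0.930% in those of list 2. In list 1 the share was 0.544% in WT at 12 hpf, 0.542% in WT at 16 hpf, 0.534% in sa37 at 12 hpf and 0.486% in sa37 at 16 hpf. In list 2 the same groups had 0.861, 0.733, 0.930 and 0.777%. The 2 lists do not overlap in this share, while within each list the 16 hpf library of a genotype was the lower one. A single member, KN150442.1:37815-37969 on the minus strand, held 15.9 to 25.3% of all scaffold RPM in list 1 and 29.1 to 43.2% in list 2. Without it the scaffold share was 0.397 to 0.456% in list 1 and 0.499 to 0.552% in list 2, and the 16 hpf library was the lower one in WT of list 2 and in sa37 of list 1 only.

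That strongest member had 1265 RPM in WT and 1025 RPM in sa37 at 12 hpf in list 1, and 3338 and 3892 RPM in list 2. At 16 hpf it had 781 RPM in WT and 820 RPM in sa37 in list 1, and 2267 and 2184 RPM in list 2. Every 16 hpf library thus lay below both 12 hpf libraries of its list, and the genotypes overlapped. On the log2(RPM + 1) scale the stage difference averaged over genotypes was -0.60 (SE 0.64), with an adjusted p by limma of 0.940. In the fit that takes the replicate number as a block, here called blocked, the SE was 0.13 and the adjusted p by limma 0.0157. The next 5 members in order of level varied less. KN150648.1:885-1411 on the plus strand ranged from 163 to 272 RPM over the 8 libraries and KN149883.1:5130-5264 on the minus strand from 151 to 223 RPM. KN150672.1:47650-47822 on the minus strand ranged from 118 to 189 RPM, KN150158.1:15770-15896 on the minus strand from 76.7 to 252 RPM, and KN149781.1:4915-5125 on the plus strand from 75.7 to 219 RPM. In 4 of 4 pairs of libraries of the same genotype and list, KN150648.1 and KN149781.1 were lower at 16 than at 12 hpf, and KN149883.1 and KN150158.1 were higher. For none of these 5 did the genotype difference or the stage difference, each averaged over the other factor, pass the threshold without the block or with it.

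The scaffold of the strongest start, KN150442.1, also held the most tested members, 8 between positions 35218 and 37969, a span of 2751 bases, and 7 of them were on the minus strand. All 8 had a lower mean at 16 than at 12 hpf, with stage differences averaged over genotypes of -0.84 to -0.43, and 6 of the 8 were lower in 4 of 4 pairs of libraries of the same genotype and list. For this difference limma called 6 of them with the block and 0 without it, where 27.9 and 1.88% of all tested regions were called in either direction. The 6 were all lower at 16 hpf, and with the block 7.73% of all tested regions were called as lower. The second strongest of the row, at 35742-35933 on the minus strand, had 108, 73.5, 179 and 172 RPM in the 12 hpf libraries (WT and sa37 of list 1, then WT and sa37 of list 2), against 60.7, 62.0, 105 and 127 RPM at 16 hpf. The row lay within one short stretch, so its members are not independent of one another.

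The comparison of jam3b-sa37 with WT asked which scaffold starts differ in use between the genotypes. Averaged over stages, 10 of the 269 tested members (3.72%) were at least 4-fold apart (a difference of 2 or more in log2(RPM + 1)). Of these 6 were higher and 4 lower in sa37. On chr1 to chr25 it was 186 of 18731 regions (0.993%), and 1.03% of all regions tested. At 12 hpf the numbers were 13 members (4.83%) against 1.22% on the chromosomes and 1.27% of all. At 16 hpf they were 11 members (4.09%) against 1.06 and 1.1%. Of the 13 at 12 hpf, 3 were on KN150127.1 and 2 on KN149704.1, so the 13 are not all independent. Of the 11 at 16 hpf, 1 was on KN150127.1 and 0 on KN149704.1. The number at 16 hpf was 17 (6.32%) without the WT 16 hpf library of list 1, against 1.36% on the chromosomes, and likewise 17 without that of list 2, against 1.66%. Such a refit sets unequal numbers of libraries of the lists against each other, so a difference between the lists enters it. With a pseudocount of 0.1 RPM the numbers were 27 in the average, 36 at 12 hpf and 25 at 16 hpf (10, 13.4 and 9.29%), where 3.29, 4.61 and 3.88% of all regions reached 4-fold. The 7 members that differed at least 4-fold at both stages did so in the same direction, which was not counted over all tested regions. Just inside the 4-fold limit of the average was KN150631.1:17949-17953 at 2.33 and just outside KN149769.1:3484-3505 on the plus strand at -1.97. The share was higher than on the chromosomes at each level, with no test made of it. Of members with a mean of 1 to 5 RPM 3.39% differed at least 4-fold in the average, of those at 5 to 20 RPM 5.43% and of those at 20 RPM or more 1.69%, where the chromosomal regions had 1.03, 1.13 and 0.776%. The last of these bins rests on 1 of 59 members.

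**Figure D1:**
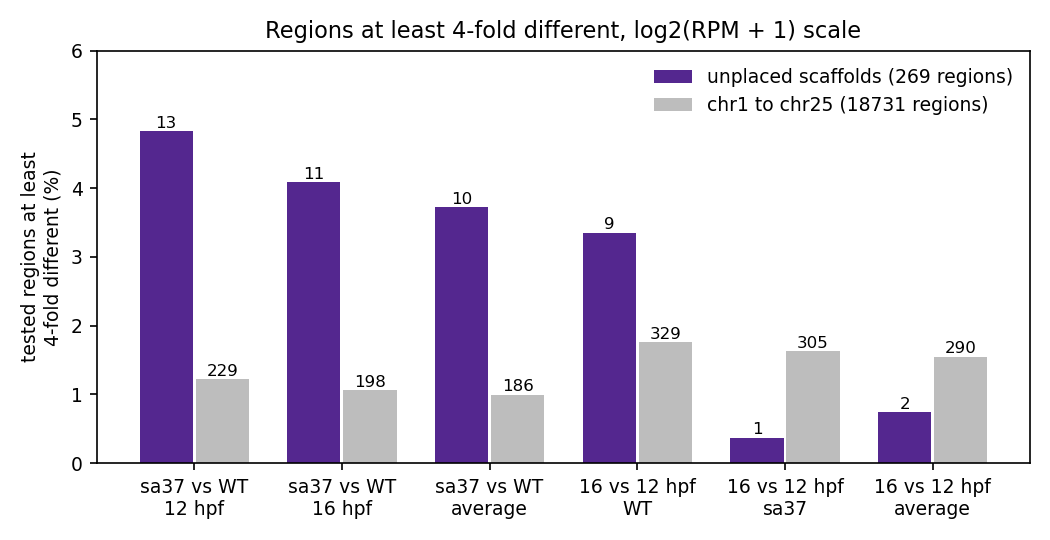
The share of tested regions at least 4-fold different (percent, linear axis from 0) is drawn for unplaced scaffolds and for chr1 to chr25 in each comparison, with the number of regions above each bar. The scaffold bars stand at 4.83, 4.09 and 3.72% in the 3 genotype comparisons, where the chromosomes have 1.22, 1.06 and 0.993%, while in the stage comparisons the scaffold bar is the taller one in WT alone.

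The share was higher within each cluster list too. In list 1, 18 members (6.69%) differed at least 4-fold between genotypes at 12 hpf and in list 2, 15 (5.58%), against 1.49 and 1.73% of the chromosomal regions. In both lists and in one direction 7 members (2.60%) did so, against 0.678%. With unlike signs 0 members did so, and 5 of the 18731 chromosomal regions. At 16 hpf there were 17 such members in list 1 (6.32%) and 13 in list 2 (4.83%), against 1.38 and 1.41% of the chromosomal regions. Of these members, 5 had the same direction in both lists (1.86%, against 0.587%). Unlike signs were found for 1 member and 4 chromosomal regions. Across the 269 members, the genotype differences in the lists correlated at 12 hpf (Pearson's r 0.61, Spearman's rho 0.51) and at 16 hpf (r 0.43, rho 0.44), where the chromosomal regions had 0.49 and 0.29, then 0.55 and 0.40. These are descriptions across regions, which share libraries and are not replicates.

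**Figure D2:**
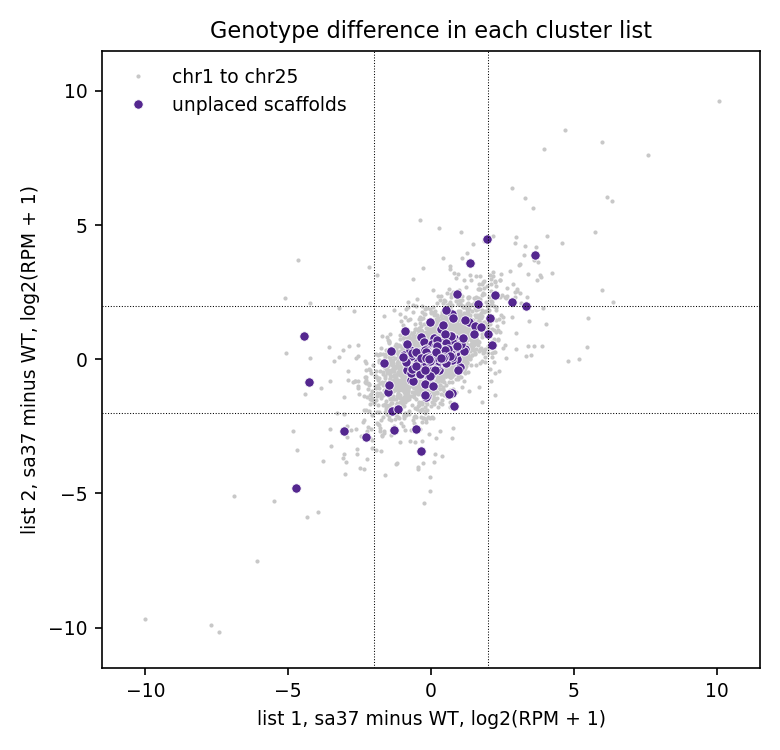
Each point is a tested region, with the sa37 minus WT difference averaged over stages in list 1 on the horizontal axis and in list 2 on the vertical axis, both in log2(RPM + 1), and dotted lines mark 4-fold. Of the 269 scaffold members (purple), those farthest out along the rising diagonal include KN150380.1 at the lower left and KN150065.1 at the upper right, and the 2 points at the left that lie between the dotted horizontal lines are KN149929.1 and KN150173.1, far lower in sa37 in list 1 alone.

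The centre of the members differed little between genotypes. Their median difference averaged over stages was 0.04, against 0.06 on the chromosomes, and 55.8% of them were higher in sa37, against 59.2%. The spread was wider, with quartiles of -0.20 and 0.32 against -0.11 and 0.22. After quantile normalization the medians were -0.02 and -0.01. Of the 269 members, 58 had genotypes that did not overlap within either list (38 higher in sa37, 20 lower), which is 21.6%, where 13.7% of all tested regions met this rule (8.68% higher, 4.97% lower). One sign in all 4 pairs of libraries was found for 110 members (40.9%), against 31% of all tested regions.

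In limma without the block, 5 members were called in the average over stages, 4 higher and 1 lower in sa37 (1.86%), where 0.632% of all tested regions were called. All 5 were listed at 0 in list 1 in the genotype where they were lower, and were under 1 RPM there in list 2. They could thus reach the minimum for testing only through the other genotype. Values at or near 0 also show little spread between libraries, which enters the SEs. At 12 hpf and at 16 hpf 2 members each were called (0.743%), the same pair, where 0.1 and 0.0895% of all regions were. With the replicate number as a block, 37 members were called in the average, 27 higher and 10 lower (13.8%), where 7.36% of all regions were. At 12 hpf the block gave 17 members (6.32%, against 2.87% of all) and at 16 hpf 13 (4.83%, against 2.13%). Of these, 11 were called at both stages, 64.7% of the first and 84.6% of the second, all 11 with the same direction. This overlap was not counted over all tested regions, so it is not shown to be particular to scaffolds. Every member called without the block was among those called with it. Quantile normalization with the block gave 18 higher and 14 lower in the average (where 3.67 and 3.18% of all regions, 6.86% together, were called, against 4.74 and 2.63% without it), so the balance of directions depends on the scaling.

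The member with the largest difference was KN150380.1:10432-10889 on the minus strand, the only region of its scaffold. In WT it had 25.9 RPM at 12 hpf and 25.5 at 16 hpf in list 1, and 26.4 and 37.5 RPM in list 2. In sa37 it was listed at 0 at both stages in list 1, and at 0.229 and 0.125 RPM in list 2, near the floor of 3 tags. The genotypes did not overlap, and in list 1 the level in sa37 was at least 49.9-fold lower, taking the smallest listed value as the floor. It fell in sa37 by 4.76 in the average over stages (SE 0.24, adjusted p by limma 0.000938, blocked 1.56e-05). It was called at 12 hpf (-4.61, SE 0.33, limma adjusted p 0.00965) and at 16 hpf (-4.91, SE 0.33, limma adjusted p 0.00833) as well.

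KN150065.1:617-700 on the minus strand, likewise the only region of its scaffold, showed the reverse. It was listed at 0 in WT at both stages in list 1, and at 0 and 0.042 RPM in list 2. In sa37 it had 9.82 RPM at 12 hpf and 13.1 at 16 hpf in list 1, and 13.6 and 14.5 RPM in list 2. It rose in sa37 by 3.75 in the average over stages (SE 0.22, adjusted p by limma 0.00189, blocked 4.32e-05), and in list 1 the level was at least 20.9-fold higher than in WT. It was called at 12 hpf (3.65, SE 0.31, limma adjusted p 0.0216) and at 16 hpf (3.86, SE 0.31, limma adjusted p 0.0137).

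The 3 other members that rose in sa37 without the block were at lower levels. KN149990.1:25602-25615 on the plus strand was listed at 0 in WT in list 1 and had 0.943 and 0.589 RPM in WT in list 2, against 5.81, 6.59, 7.33 and 6.31 RPM in the sa37 libraries, a difference of 2.50 (SE 0.31, adjusted p by limma 0.0266, blocked 0.00101). Its tested neighbour on the scaffold, at 3457-3527 on the minus strand, had a genotype difference of -0.15. KN150631.1:17949-17953 on the plus strand, a region of 4 bases, had at most 0.210 RPM in WT and 2.65 to 5.73 RPM in sa37, a difference of 2.33 (SE 0.27, adjusted p by limma 0.0210, blocked 0.00119). Its tested neighbour at 30467-30485 on the plus strand had a difference of -0.47. KN149817.1:2202-2236 on the plus strand had at most 0.129 RPM in WT and 1.495 to 3.42 RPM in sa37, a difference of 1.81 (SE 0.25, adjusted p by limma 0.0390, blocked 0.00212). Leaving out 1 library at a time, KN150380.1 and KN150065.1 stayed called in the average in 8 of 8 refits, while at a single stage KN150065.1 lost its calls in 8 of 8 and KN150380.1 in 4 of 8 at either stage. In the average, KN149990.1 and KN149817.1 lost the call in 8 of 8 and KN150631.1 in 7 of 8. With a pseudocount of 0.1 RPM KN149990.1 was not called (adjusted p 0.217), nor was KN149817.1 after quantile normalization (adjusted p 0.0982).

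**Figure D3:**
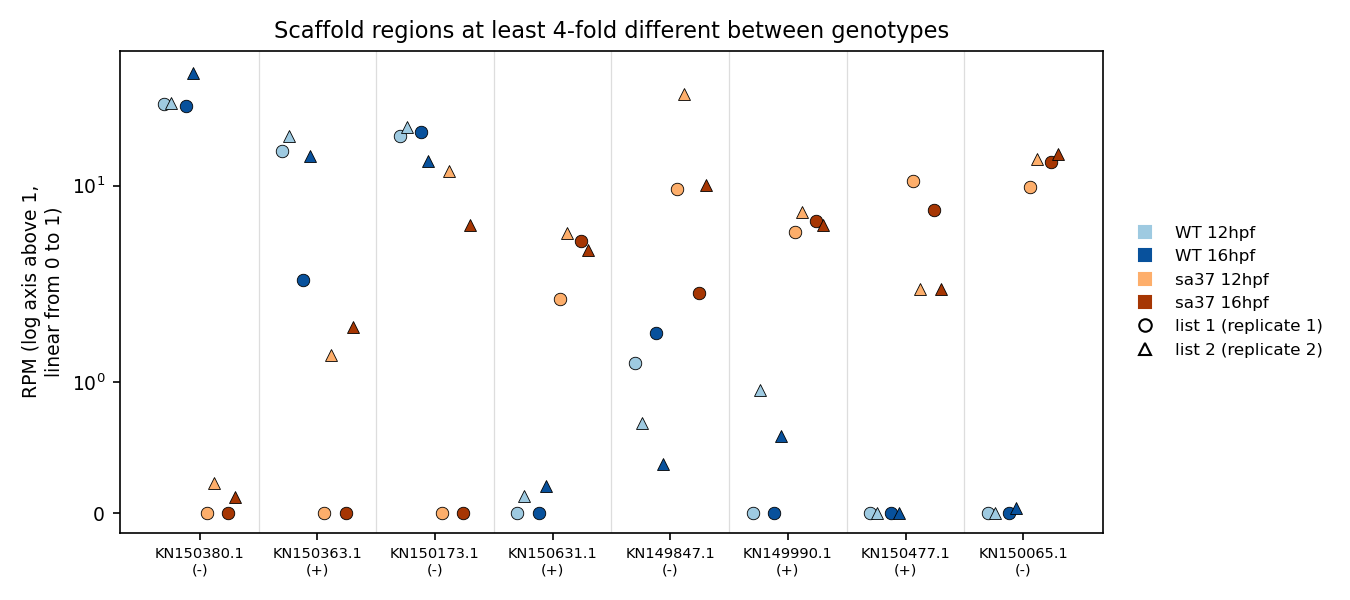
The level of each of the 8 members that differed at least 4-fold in the average over stages, with one sign in 4 of 4 pairs of libraries, is drawn by library in RPM (logarithmic above 1, linear from 0 to 1). Colours give genotype and stage, circles list 1 and triangles list 2. The 3 members at the left are lower in sa37 and the 5 at the right higher, and only for KN150173.1 and KN150363.1 does a sa37 library of list 2 lie above 1 RPM on the lower side.

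Of the 10 members at 4-fold or more, 8 kept one sign in all 4 pairs of libraries, and 4 of those 8 passed without the block. The other 4 did not. KN150477.1:13113-13168 on the plus strand was listed at 0 in all 4 WT libraries and had 10.6 and 7.51 RPM in sa37 in list 1 and 2.98 and 2.99 RPM in list 2. The genotypes differed by 2.65 (SE 0.42, adjusted p by limma 0.0641, blocked 0.00422), and the sa37 level was at least 16.5-fold higher in list 1 and 23.4-fold higher in list 2. KN149847.1:6219-6227 on the minus strand had 0.378 to 1.77 RPM in WT and 2.83 to 29.1 RPM in sa37, a difference of 2.47 (SE 0.51, adjusted p by limma 0.160, blocked 0.0272). KN150363.1:13960-14036 on the plus strand had 14.98 and 3.30 RPM in WT in list 1 and 17.9 and 14.1 RPM in list 2, against 0 in sa37 in list 1 and 1.37 and 1.91 RPM in list 2, a difference of -2.87 (SE 0.56, adjusted p by limma 0.137, blocked 0.00213).

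Among these 8 members the lists diverged most for KN150173.1:16251-16448 on the minus strand. WT had 17.96 and 18.84 RPM in list 1 and 19.8 and 13.3 RPM in list 2. In sa37 it was listed at 0 at both stages in list 1 but had 11.8 and 6.31 RPM in list 2. Its difference of -2.56 (SE 0.93, limma adjusted p 0.736) did not pass with the block either (adjusted p 0.0811). The sa37 libraries of the lists did not overlap with each other, while all 4 WT libraries lay above every sa37 library.

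Another rule asked for under 0.5 RPM in all 4 libraries of one genotype and at least 1 RPM in all 4 of the other. It does not require a 4-fold difference in log2(RPM + 1). List 1 holds no value between 0 and 0.51 RPM, so under 0.5 RPM there means listed at 0. Such a region could reach the mean of 1 RPM needed for testing only through the genotype where it was high. The rule was met by 9 members (3.35%), 6 present in sa37 and 3 in WT, where 0.542% of all tested regions met it. For stage the same rule was met by 0 members, against 0.479% of all tested regions. The 9 were KN150380.1, KN150065.1, KN150477.1, KN150631.1 and KN149817.1 as described above, with KN149950.1:907-939, KN149998.1:15414-15475, KN150252.1:41573-41606 (all on the plus strand) and KN150108.1:538-611 on the minus strand. KN149950.1 had 1.18 to 4.29 RPM in WT and 0 in all 4 sa37 libraries. KN150252.1 had 1.28 to 3.61 RPM in sa37 and 0 in all 4 WT libraries. KN149998.1 had 1.22 to 3.30 RPM in WT and at most 0.172 RPM in sa37, and KN150108.1 had 1.39 to 2.56 RPM in sa37 and at most 0.386 RPM in WT. These last 4 were named after their values were seen. The bounds were chosen with earlier results known. Regions of a single list gave no such case at a higher bound: among the 149 members of list 1 and the 179 of list 2 that lacked a partner, 0 had both libraries of a genotype under 0.5 RPM and both of the other at 5 RPM or more. Such cases were rare on chr1 to chr25 as well. Of the regions of list 1 alone, 0.0640% were present in sa37 and 0.112% in WT, and of those of list 2 alone 0.00837 and 0.0335%. Counts of 0 among so few members therefore do not set the scaffolds apart.

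Neighbouring starts were compared by a limit of 2-fold, with no test made of it. Of the 55 scaffolds with 2 or more tested members, 10 held a member at least 2-fold different in the average over stages. In 7 of these it was the only such member, so that its neighbours differed less by this rule. On 5 of the 7 all tested neighbours had the same sign, which was not counted for chromosomal regions. On KN150108.1 the neighbours of the member at 538-611, at 6448-6560 and 8858-8980 on the minus strand, had differences of 0.71 and 0.69 beside its 1.40, and all 3 were called with the block (limma adjusted p 0.0474, 0.0455 and 0.00392). On KN150402.1 the plus strand regions at 14374-14519 and 18670-18948 had -0.52 and -1.22, both called with the block (limma adjusted p 0.0425 and 0.00665). On KN149847.1 the neighbour had 0.84 beside 2.47. In 1 of the 10 every tested member differed at least 2-fold. None of the 10 held such members in both directions, which the 7 with a single such member could not show. This too was not counted for chromosomal regions. The scaffold with every member different was KN150708.1, where a plus strand region at 30638-30716 and a minus strand region at 31516-31609 had differences of 1.32 and 1.14 and were called with the block (limma adjusted p 0.00734 and 0.0425), not without it (0.121 and 0.386). The first had 0.86 to 2.57 RPM in WT and 4.19 to 5.55 RPM in sa37, and the second 1.41 to 4.53 RPM in WT and 4.62 to 10.8 RPM in sa37. Members alone on their scaffold and those with a tested neighbour differed at least 4-fold in 5 of 125 (4.00%) and 5 of 144 (3.47%) cases.

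The remaining 2 members at 4-fold or more, on KN150127.1 and KN149704.1, did not keep one sign in all 4 pairs of libraries. On the first of these scaffolds, values moved strongly between libraries of the same group. On KN150127.1, the second scaffold by number of tested members (6), a row of 5 minus strand regions began at positions 3671, 6402, 9810, 13014 and 16056, that is 2731 to 3408 bases apart. Together they held 647 RPM in WT at 16 hpf in list 1 and 0.252 RPM in WT at 16 hpf in list 2. In WT at 12 hpf they held 0 and 0.257 RPM. In sa37 they held 218 RPM at 12 hpf and 124 at 16 hpf in list 1, and 27.0 and 30.7 RPM in list 2. One WT library was thus the highest of the 8 and the other 3 WT libraries the lowest.

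The first region of the row, at 3671-4084, had 282, 77.4 and 52.7 RPM in WT at 16 hpf, sa37 at 12 hpf and sa37 at 16 hpf in list 1 and 0 in WT at 12 hpf. In list 2 it had 25.02 and 28.07 RPM in sa37 and 0.257 and 0.210 RPM in WT. Its genotype difference averaged over stages was 3.21 with an SE of 1.57 (adjusted p by limma 1.0, blocked 0.184), which did not pass against the spread between libraries. The region at 6402-6667, with clusters in list 1 alone, followed the same order at 82.1, 53.0, 31.5 and 0 RPM. The regions at 9810, 13014 and 16056 were 3.41 to 123 RPM in the same 3 libraries of list 1 and at most 1.29 RPM in list 2. A cluster of list 2 alone at 12963-12997, just beside the 13014 region on the same strand, did not overlap it and was not merged. It had 3.89 RPM at 12 hpf and 3.61 RPM at 16 hpf in sa37, and 0 in WT. Whether these tags come from copies of one sequence was not tested.

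**Figure D4:**
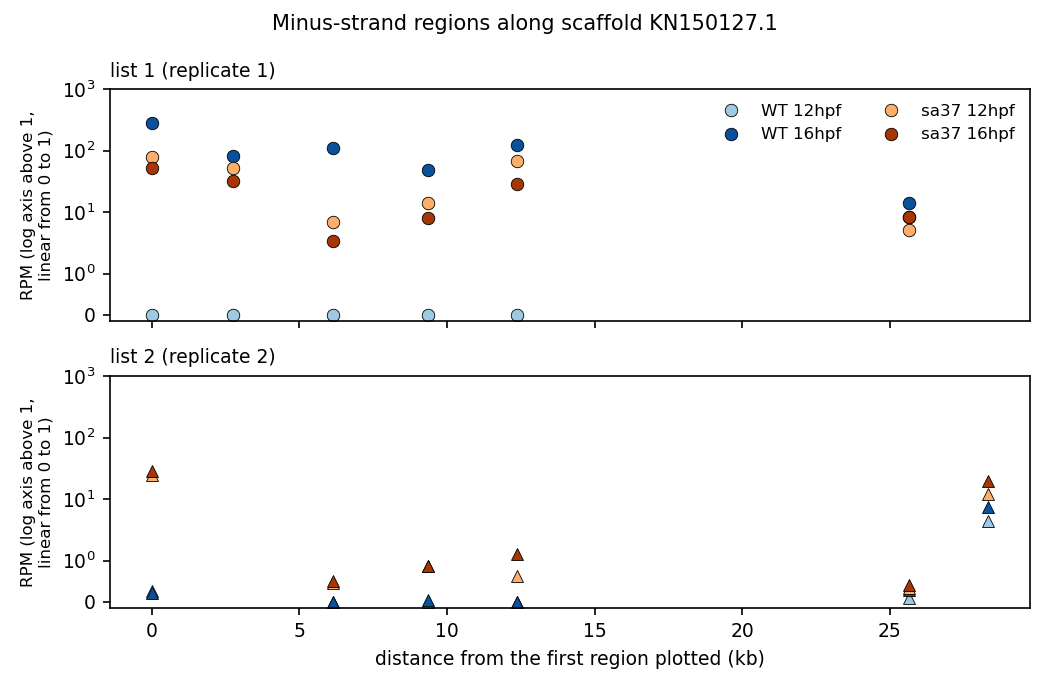
Levels of the minus strand regions of scaffold KN150127.1 that reached 10 RPM in some library are drawn in RPM (logarithmic above 1, linear from 0 to 1) against the distance in kb from the first of them, for list 1 (upper panel) and list 2 (lower panel), and a region is shown only in a list that holds a cluster of it. In list 1 the WT 16 hpf library is the highest and the WT 12 hpf library is at 0 over the first 5 regions, while in list 2 both WT libraries lie near 0 over those regions and the first of them holds 25.02 and 28.07 RPM in sa37.

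KN149704.1, the third scaffold by number of tested members (5), held starts that were highest in WT at 12 hpf. Its region at 8703-8707 on the minus strand had 22.1 and 11.3 RPM in WT at 12 hpf and 0 and 3.45 RPM in WT at 16 hpf in lists 1 and 2, and was listed at 0 in all 4 sa37 libraries. The genotype difference averaged over stages was -2.58 (SE 0.49, adjusted p by limma 0.131, blocked 0.0232). The plus strand region at 22392-22395 followed the same order at lower levels, with 6.98 and 1.93 RPM in WT at 12 hpf, 0 and 0.841 RPM in WT at 16 hpf and 0 in sa37. Between them, the plus strand region at 15970-16249 had 4.16 to 5.51 RPM in list 1 and 7.93 to 10.9 RPM in list 2, and the minus strand region at 17031-17120 had 17.25 to 18.15 RPM in list 1 and 33.5 to 41.0 RPM in list 2. These genotypes and stages thus lay close together within each list. The minus strand region at 21905-21911 had 16.3 and 14.5 RPM in WT at 12 hpf and 1.65 to 6.58 RPM in the other 6 libraries, with a stage difference in WT of -2.05 (adjusted p by limma 0.235, blocked 0.0118). Without KN150127.1 and KN149704.1, 8 members differed at least 4-fold between genotypes.

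The comparison of 16 with 12 hpf asked how start site use changed with development. The number of large stage differences among scaffold starts was small and changed in refits without 1 library, and no test was made of the shares. Averaged over genotypes, 2 members (0.743%) differed at least 4-fold, 1 in each direction, where 1.55% of the chromosomal regions did and 1.54% of all. In WT 9 members did so (3.35%, against 1.76% on the chromosomes and 1.78% of all), of which 4 were on KN150127.1 and 2 on KN149704.1, and the number was 5 (1.86%, against 3.11% on the chromosomes) without the WT 16 hpf library of list 1. It was 17 (6.32%, against 3.52%) without the WT 12 hpf library of list 2 and 14 (5.2%, against 1.95%) without the WT 16 hpf library of list 2. In sa37 1 member did so (0.372%, against 1.63% on the chromosomes and 1.61% of all). Leaving out the sa37 12 hpf library of list 1 gave 7 in sa37 (2.60%, against 1.82%), that of list 2 gave 5 (1.86%, against 3.44%), and leaving out the sa37 16 hpf library of list 1 or list 2 gave 3 (1.12%, against 2.82%) or 4 (1.49%, against 2.01%). In the average over genotypes, 7 (2.60%, against 1.34%) were at 4-fold or more without the WT 16 hpf library of list 2 and 5 (1.86%, against 1.36%) without the sa37 12 hpf library of list 1, while the other 6 refits gave 2 to 4. The order of scaffolds and chromosomes thus turned in each stage comparison when 1 library was left out. Each such refit sets unequal numbers of libraries of the lists against each other, so a difference between the lists enters these shares. Without the WT 16 hpf library of list 1, the chromosomal median in WT moved from 0.05 to 0.36. These refits therefore cannot tell dependence on a single library from a difference between the lists. Within list 1 the number in WT was 16 (5.95%, against 2.24% on the chromosomes) and in sa37 2 (0.743%, against 2.17%). Within list 2 both genotypes gave 2 members (0.743%), against 1.70% of the chromosomal regions in WT and 1.66% in sa37. By level, 5.08% of the members at 1 to 5 RPM differed at least 2-fold in the average over genotypes, 7.61% of those at 5 to 20 RPM and 6.78% (4 of 59) of those at 20 RPM or more, against 11.0, 9.05 and 4.5% on the chromosomes.

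In limma without the block, 3 members were called in the average over genotypes, 2 higher and 1 lower at 16 hpf (1.12%), where 1.88% of all regions were called. In WT 0 members were called and in sa37 0, where 0.0421 and 0.1% of all regions were called. At an unadjusted p under 0.05 there were 11 and 8 members (4.09 and 2.97%), against 6.43 and 6.44% of all regions. With the block, 27 members were called in WT (16 higher, 11 lower), which is 10% against 13.8% of all regions. In sa37 the block gave 18 members (16 higher, 2 lower), which is 6.69% against 14.3%. Of all 19000 regions, 1863 were called as higher and 766 as lower in WT, and 2177 and 540 in sa37. Of the 27 and the 18 members, 13 were called in both genotypes (48.1% of the first and 72.2% of the second), all 13 with the same direction. The same overlap was not counted over all tested regions. In the average over genotypes the block gave 64 members, 35 higher and 29 lower (23.8%, against 27.9% of all). Of all regions, 20.2% were called as higher and 7.73% as lower. The 29 lower members lay on 22 scaffolds, and 6 of them were in the row on KN150442.1, whose members are not independent. Quantile normalization with the block gave 23 higher and 40 lower, against 14.1% of all regions higher and 13% lower (27.1% together).

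The median stage difference of the members averaged over genotypes was 0.03, with 51.7% of them higher at 16 hpf, against 0.09 and 59.2% on the chromosomes. After quantile normalization it was -0.12, against -0.05. Of the members, 74 (27.5%) had stages that did not overlap within either list, 44 higher and 30 lower at 16 hpf, where 33.7% of all tested regions met this rule (23.8% higher, 9.86% lower). One sign in all 4 pairs was found for 123 members (45.7%), against 49.6% of all tested regions.

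KN150640.1:5689-5832 on the plus strand rose from 12 to 16 hpf. In list 1 it went from 1.49 to 14.8 RPM in WT and from 3.93 to 27.3 RPM in sa37, and in list 2 from 4.07 to 24.9 RPM in WT and from 6.127 to 35.999 RPM in sa37. The stages did not overlap in either list, and within each stage and list the sa37 library was the higher one. The stage difference averaged over genotypes was 2.48 (SE 0.34, adjusted p by limma 0.0221, blocked 0.000183), and it was 2.51 in WT and 2.45 in sa37. Its genotype difference averaged over stages was 0.71 (SE 0.34, adjusted p by limma 1.0, blocked 0.0289).

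KN150207.1:1102-1451 on the minus strand fell. In list 1 it went from 68.4 to 10.1 RPM in WT and from 45.3 to 11.0 RPM in sa37, and in list 2 from 60.6 to 7.27 RPM in WT and from 70.1 to 16.3 RPM in sa37. All 12 hpf libraries lay above all 16 hpf libraries. The stage difference averaged over genotypes was -2.38 (SE 0.27, adjusted p by limma 0.0135, blocked 0.00059), with -2.77 in WT and -1.99 in sa37.

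KN149893.1:3955-3988 on the plus strand rose as well, at a lower level. It had 0 and 0.600 RPM in WT and sa37 at 12 hpf in list 1 and 0.557 and 1.15 RPM in list 2, against 2.26 and 6.36 RPM at 16 hpf in list 1 and 3.11 and 5.19 RPM in list 2. The stage difference averaged over genotypes was 1.71 (SE 0.26, adjusted p by limma 0.0302, blocked 0.000832). The stages did not overlap. With a pseudocount of 0.1 RPM KN149893.1 was not called (limma adjusted p 0.117). All 3 of these stage calls were lost in each of the 8 refits that left out 1 library.

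**Figure D5:**
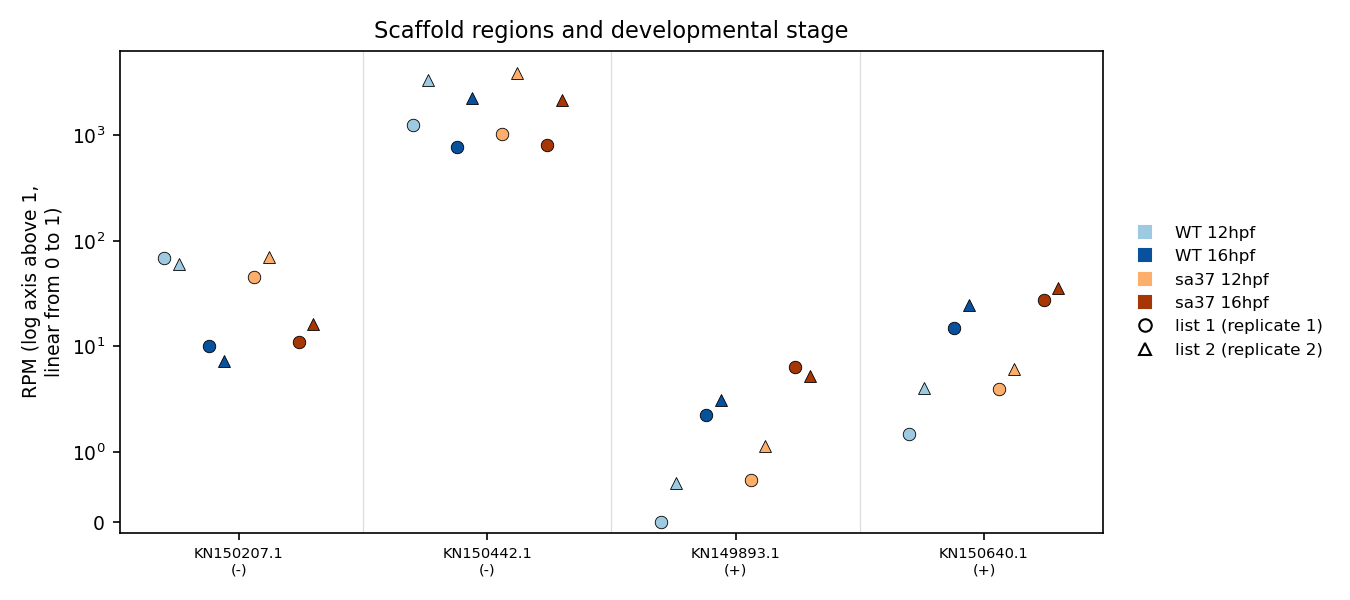
The level of the 3 members called between stages and of the strongest member, KN150442.1:37815-37969, is drawn by library in RPM (logarithmic above 1, linear from 0 to 1), with genotype and stage by colour and the cluster list by symbol. KN150207.1 falls from 45.3 to 70.1 RPM at 12 hpf to 7.27 to 16.3 RPM at 16 hpf, KN149893.1 and KN150640.1 rise in both genotypes, and the list 2 values of KN150442.1 lie above those of list 1.

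No member was called for the interaction of genotype and stage in limma without the block or with it (0 of 269 and 0 of all 19000 regions, 0% of all tested), and 2 and 15 members (0.743 and 5.58%) had an unadjusted p under 0.05, against 0.242 and 4.59% of all regions.

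Large differences in level between the lists were also more frequent on scaffolds, with no test made of it. The mean of the list 2 libraries and that of the list 1 libraries lay at least 4-fold apart, in log2(RPM + 1), for 4.83% of the tested members and 1.81% of the chromosomal regions. List 1 was the higher one for 8 members (2.97%, against 0.459% on the chromosomes), of which 5 were on KN150127.1, and list 2 for 5 (1.86%, against 1.35%). KN150281.1:3581-3763 on the minus strand, named after its values were seen, had 2.54 to 3.92 RPM in list 1 and 107 to 125 RPM in list 2, and its genotypes overlapped in each list. KN149929.1:37610-37859 on the plus strand, also named after its values were seen, had 37.95 and 30.40 RPM in WT in list 1 but 0.600 and 0.294 RPM in WT in list 2, with 0.600 to 2.18 RPM in the sa37 libraries. The replicate and the cluster list cannot be told apart here.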

How the data were processed

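Start site clusters were measured by CAGE in 8 libraries of whole zebrafish embryos, 2 in each of 4 groups of genotype and stage. The authors deposited, per library, clusters with their RPM, per the file headers. The submitters' processing notes name danRer10, BWA and HISAT2 with no role or order, and cluster calling and normalization are not given in the sources used here. Repeated lines were dropped (412 in list 1, 796 in list 2). In list 2, values under 100 steps were whole tags in 100% of cases (tolerance 0.0005 RPM), which was not shown for list 1, so no count test was run and intervals of counting error are not given.

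Same-strand clusters overlapping by at least 1 base were merged, and regions with clusters in both lists and a mean of at least 1 RPM were tested with limma 3.58.1 (R 4.3.3) on log2(RPM + 1), with 4 group means, all 8 libraries and Benjamini-Hochberg adjustment over 19000 regions. Called means an adjusted p under 0.05. Differences and fold limits are on this scale, which understates those of weak starts. The fold bounds given for starts listed at 0 in a genotype are instead ratios of mean RPM to a floor, without a pseudocount. The floor was the mean of the smallest listed values in list 1 and of 3 tags in list 2. The replicate differences of all 6 pairs of groups correlated (r 0.68 to 0.831 over the tested regions, 0.519 to 0.894 on scaffolds). Since each replicate number has its own cluster list, this cannot tell a pairing of the libraries from a difference between the lists. The fit with the replicate number as a block is given beside most results it changes. The single-stage p-values of KN150380.1 and KN150065.1 are from the fit without it. Those of the neighbouring starts on KN150108.1 and KN150402.1 are from the fit with it. The fit was also run on simulated data with normally distributed noise and no floor at 0 RPM. That run does not cover starts listed at 0, and its outcome is not given here. Alternatives were another pseudocount, no minimum, quantile normalization, wider merging, the block and leaving out each library.

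Regions named were the 6 strongest, those at least 4-fold different in the average with one sign in 4 of 4 pairs (at most 10 per direction for genotype, 6 for stage), every one called without the block, and the scaffolds with the most tested regions or RPM. Members and lists were chosen with earlier results of these data known. The files carry no gene names and no sequence of this build was used here.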

Additional observations from a re-analysis of the deposited data

Results flagged for a closer look

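KN150672.1:47650-47822 on the minus strand, the fourth strongest member, had stage differences of opposite sign in the genotypes, both smaller than their SE. They were 0.05 in WT and -0.14 in sa37 on the log2(RPM + 1) scale (SE 0.37 each, without the block). From 12 to 16 hpf it went from 128 to 137 RPM in list 1 and was at 168 RPM at both stages in list 2 in WT, and it went from 126 to 118 RPM and from 189 to 165 RPM in sa37. The interaction of genotype and stage was -0.195 on the log2(RPM + 1) scale (SE 0.53), which did not pass, its adjusted p by limma being 1.0, or 0.987 when blocked.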

How the results depend on the processing

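With the replicate number as a block, limma called 17 members for genotype at 12 hpf, 13 at 16 hpf and 37 in the average over stages, against 2, 2 and 5 without it, and for stage 27 in WT, 18 in sa37 and 64 in the average over genotypes, against 0, 0 and 3. The block with quantile normalization gave 16, 10 and 32 for genotype (5.95, 3.72 and 11.9%, against 2.51, 1.67 and 6.86% of all regions). For stage it gave 30, 28 and 63 (11.2, 10.4 and 23.4%, against 12.8, 11.9 and 27.1%). The block with clusters within 100 bases merged was added after seeing the data. It gave 18, 13 and 37 for genotype (6.79, 4.91 and 14%, against 2.97, 2.16 and 7.46% of all regions). For stage this setting gave 26, 19 and 60 (9.81, 7.17 and 22.6%, against 14, 14.5 and 28.2%). Without the block, a pseudocount of 0.1 RPM called 6, 5 and 8 members for genotype (2.23, 1.86 and 2.97%, against 0.395, 0.384 and 0.663% of all regions). It put 36, 25 and 27 members at 4-fold or more (13.4, 9.29 and 10%, against 4.61, 3.88 and 3.29%), with 23 in WT and 8 in sa37 for stage (8.55 and 2.97%, against 6.71 and 5.85%). Quantile normalization alone called 9 for genotype in the average (3.35%, against 1.26% of all), and 2 and 1 for stage in WT and sa37 and 10 in the average (0.743, 0.372 and 3.72%, against 1.46, 1.27 and 5.93%), and left 2 at 4-fold in sa37. It moved the medians to -0.0157, -0.00625 and -0.0171 for genotype (12 hpf, 16 hpf, average) and to -0.0941 and -0.114 for stage (WT, sa37). The median for genotype at 16 hpf was 0.119 with the smaller pseudocount and 0.0934 with no minimum. That for stage was 0 with no minimum and 0.017 with wider merging in WT, and 0.0218 with no minimum in sa37. The cause of these shifts was not tested. The interaction called 0 in all of these.

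Leaving out 1 library at a time left 1 library in its group. These refits called fewer members for genotype and for stage in the average over genotypes, and none for stage within a genotype. Without the WT 12 hpf, WT 16 hpf or sa37 12 hpf library of list 1, calls fell over all tested regions too, so the drop is not particular to scaffolds. Members at least 4-fold different numbered 13 to 18, 11 to 17 and 11 to 14 for genotype and 5 to 17 and 1 to 7 for stage. In the same 3 refits the share for genotype in the average was 4.83, 5.2 and 4.46%, against 1.1, 1.08 and 1.17% of all regions. The medians ran from -0.274 to 0.364, -0.188 to 0.379 and -0.0945 to 0.211 for genotype and from -0.207 to 0.274 and -0.179 to 0.327 for stage, since such a fit sets unequal numbers of libraries of the lists against each other. The mean scaffold share of listed RPM, 0.676%, was 0.473% without the strongest member (added after seeing the data), and the median level with no minimum was 4.29 RPM. The planned count tests were not run, since whole tags were recovered for list 2 only. List 1 holds no values under 0.51 RPM, so weak starts there were not detectable.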
